A study of Mus musculus with 12 samples.

Results

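Tendon, cartilage and bone lineage genes were followed in cultured mouse skeletal muscle fibroblasts. The 10 genes were taken by name: the tendon genes Scx, Mkx and Tnmd, the cartilage genes Sox9 and Acan, and the bone genes Runx2, Sp7, Alpl, Ibsp and Bglap. All 10 were found in each of the 3 deposited tables, which together list 28995 genes. The study asked how aldosterone, acting directly on fibroblasts, changes their gene expression, with spironolactone and vehicle as comparators. Gene expression was measured by bulk RNA sequencing of poly-A RNA in 12 libraries, 4 for each of 3 treatments. The cells came from hindlimb muscle of 2 wild-type C57 BL/10 mice at postnatal day 3, and were purified by their adherence to plastic. The cells of each mouse were pooled and then split into 2 plates per mouse and treatment. After a change to medium with charcoal-stripped serum, which is depleted of steroids, plates received 1 µM aldosterone, 1 µM spironolactone or the solvent DMSO for 48 h, so that all 3 groups carried DMSO. Aldosterone is the endogenous steroid agonist of the mineralocorticoid receptor, and spironolactone is a synthetic steroid antagonist of it. Library names here join the labels' sample number and their replicate number, so that vehicle 1_2 is sample number 1, replicate 2. The labels do not say which of these numbers marks the mouse, so p-values measured the spread between plates of at most 2 mice.

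Connective tissue fibroblasts, tenocytes, chondrocytes and osteoblasts all arise from mesenchymal cells, and each fate is set by a small number of transcription factors. Scx and Mkx direct the tendon programme and Tnmd is a membrane protein of mature tenocytes. Sox9 directs chondrocyte formation and drives aggrecan (Acan), the large proteoglycan of cartilage. Runx2 and, downstream of it, Sp7 (osterix) direct osteoblast formation, after which osteoblasts make alkaline phosphatase (Alpl), bone sialoprotein (Ibsp) and osteocalcin (Bglap).

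The libraries held between 19136923 and 30219185 reads on genes (median 23833379), as recovered from the deposited normalised counts. Fkbp5, a known target of steroid hormone receptors, lay at 6035 to 7118 normalised reads in the 4 aldosterone libraries, 279 to 371 in vehicle and 330 to 479 in spironolactone. It set the aldosterone libraries apart from the others and did not separate vehicle from spironolactone. The summed level of 9 genes taken as fibroblast markers was 529486 to 638725 normalised reads with aldosterone and 701085 to 755481 with vehicle. Most of that sum is Col1a1, a collagen chain, at 399208 to 503321 with aldosterone and 551818 to 601013 with vehicle. Col3a1, another collagen chain, was lower as well (83722 to 89135 and 112426 to 119241). Dcn, Lum, Thy1, Tcf4 and Pdgfrb had lower means with aldosterone, in overlapping ranges. The choice of Tcf4 as a fibroblast marker was not checked. Only the mesenchymal markers Pdgfra (5599 to 6344 and 2888 to 3364) and Ly6a (19218 to 23942 and 8690 to 12047) lay higher with aldosterone. Of the markers of other cells, Pax7 and Myf5 of muscle stem cells and Ptprc of leukocytes did not exceed 3 reads in any library. Other such markers were present in every library. Des (59.5 to 133 normalised reads) and Acta1 (144 to 712) are muscle markers, and Cd68 (12.3 to 35.9) and Csf1r (36.5 to 67.0) macrophage markers. The pericyte and smooth muscle markers Cspg4 (6053 to 10440) and Myh11 (751 to 1883) were higher still. Cartilage transcripts were abundant in all libraries, with Col2a1, the main collagen of cartilage, between 19985 and 69858 normalised reads, while Matn1 of mature cartilage did not exceed 12 reads. In such bulk samples, fewer cells of a type and less RNA per cell cannot be told apart.

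The 10 genes spanned a wide range of levels. Per kilobase of gene length, vehicle-treated fibroblasts held 1652 ± 116 normalised reads of Tnmd (SD, n = 4), 921 ± 101 of Scx and 487 ± 46.2 of Sox9. These 3 levels did not overlap between libraries. Acan (204 ± 52.2), Mkx (141 ± 38.6), Runx2 (124 ± 7.58), Sp7 (101 ± 30.6) and Alpl (68.2 ± 14.5) followed, each overlapping its neighbour in the order. Bglap lay at 24.9 ± 9.56 and Ibsp was the lowest at 8.21 ± 6.16 normalised reads per kilobase, without overlap between these libraries. The order was the same with spironolactone. With aldosterone, Sox9 (617 ± 47.3) had a higher mean than Scx (542 ± 24.4) on this scale and Runx2 (102 ± 6.81) a higher mean than Mkx (94.9 ± 25.6), although the libraries of each pair overlapped. The plot of every library by gene shows these levels on the scale common to all 12 libraries.

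**Figure D1:**
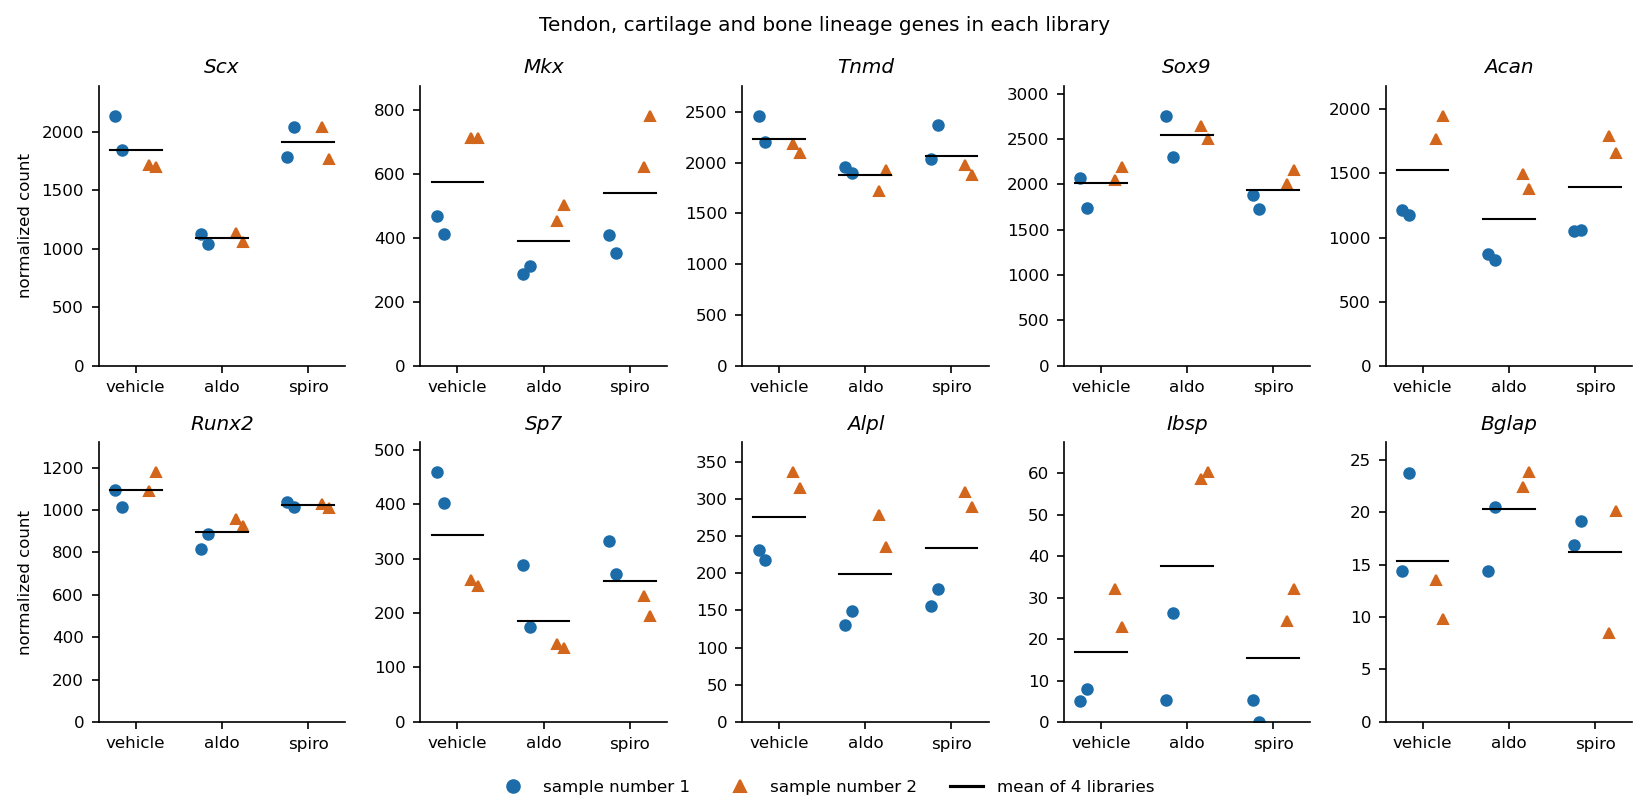
Normalised reads (counts divided by a size factor common to all 12 libraries, linear axis from 0) of the 10 lineage genes in each library, by treatment, with the symbol giving the sample number and the bar the mean of 4 libraries. Scx lies between 1037 and 1136 in the 4 aldosterone libraries and between 1698 and 2136 in the 4 vehicle libraries, while Acan and Alpl separate by sample number.

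Aldosterone compared to vehicle treatment was tested with limma on log2(normalised count + 1), with Benjamini-Hochberg adjustment over all 27319 genes of that table and a threshold of adjusted p of 0.05. By this test 5 of the 10 genes passed: Scx, Runx2, Tnmd and Sp7 were lower and Sox9 was higher. Of all genes tested, 4.74% passed as lower and 5.68% as higher. These shares include many genes with few reads. Among the 15245 genes with a mean of at least 10, which hold all 10 lineage genes, 1413 passed as lower and 1620 as higher when tested alone. None of the 10 also reached an absolute log2 fold change of 1, which 2.06% of all genes did. When the sample number was entered as a replicate block, which the libraries' shared deviations called for, 8 genes passed (7 lower and 1 higher), adding Mkx, Acan and Alpl, against 8.02% of all genes lower and 8.68% higher. The median log2 fold change of the 10 genes was -0.36, beside -0.0033 over the 15245 genes with a mean of at least 10. The 10 genes and the lists below were chosen with earlier results of these data known. Their counts and medians are therefore no independent test of the set. Within each sample number separately, 7 genes lay lower in both aldosterone plates than in both vehicle plates, which 11.2% of all genes did, and 1 gene, Sox9, lay higher, which 10.9% did.

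**Figure D2:**
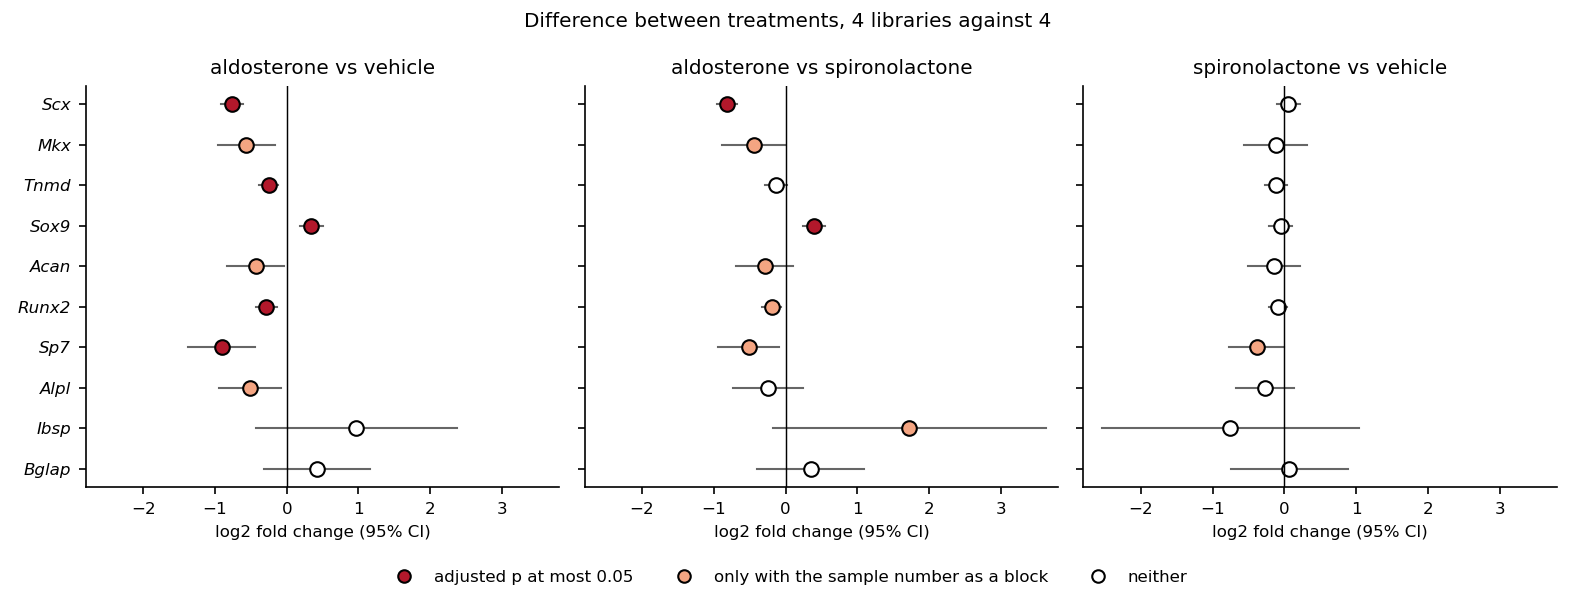
Log2 fold change of the 10 genes in the 3 treatment comparisons, with 95% confidence intervals from limma (4 libraries against 4), and a fill that shows whether the adjusted p passed without and with the sample number as a block. Scx (-0.76) and Sox9 (0.34) are clear of 0 against vehicle and against spironolactone (-0.81 and 0.39), whereas no gene passed without the block between spironolactone and vehicle.

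Of the tendon genes, Scx and Tnmd were lower with aldosterone, and Mkx was so in the test with the block. Scx encodes scleraxis, the transcription factor that marks tendon progenitors, and lies at chr15:76341652-76343658 on the plus strand (mm39 by the submitters' processing notes). It was at 1108, 1024, 1123 and 1044 normalised reads in aldosterone libraries 1_1, 1_2, 2_1 and 2_2, and at 2113, 1822, 1698 and 1678 in the vehicle libraries. Every aldosterone library lay below every vehicle library. The means were 1075 ± 48.3 and 1828 ± 201 (SD, n = 4 each), a ratio of 0.588, and the log2 fold change was -0.76 (SE 0.0728, 95% confidence interval -0.91 to -0.61, limma adjusted p = 2.03e-06). The call for Scx held on leaving out each of the 8 libraries in turn, with an adjusted p of at most 0.00256. The gene Bop1, which encodes a ribosome biogenesis factor, spans Scx on the opposite strand and held 1151 to 2071 reads per library. Whether strand was used in counting is not stated in the sources used here, so reads of the overlapping partner cannot be told apart from those of Scx. Bop1 itself had a log2 fold change of -0.09 (95% confidence interval -0.26 to 0.07, adjusted p = 0.574).

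Tnmd, the membrane glycoprotein tenomodulin (chrX:132751729-132766326, plus strand), was at 1934, 1873, 1697 and 1906 normalised reads with aldosterone and at 2434, 2176, 2160 and 2070 with vehicle. The groups did not overlap, but the gap between the nearest libraries was small. Its log2 fold change was -0.25 (SE 0.0637, interval -0.39 to -0.12, adjusted p = 0.0155, and 0.000261 with the block). Without the block, the call was lost on leaving out aldosterone 1_2, 2_1 or 2_2 or vehicle 1_1, 1_2 or 2_1, with adjusted p between 0.0678 and 0.0874. With the block it held on leaving out any of the 8 libraries. Mkx, the homeobox factor Mohawk, on the minus strand of chromosome 18, was at 284, 308, 447 and 497 normalised reads with aldosterone and at 464, 407, 703 and 703 with vehicle. Within each sample number the aldosterone plates were the lower ones, while across sample numbers the groups overlapped. The log2 fold change of Mkx was -0.56 (SE 0.187, interval -0.96 to -0.17), with an adjusted p of 0.0713 without the block and 2.95e-07 with it. The exact permutation test on the unblocked values of Mkx gave p = 0.143 (two-sided, 4 against 4).

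Of the 2 cartilage genes, Sox9 was higher with aldosterone, while Acan was lower in the test with the block. Sox9 (chr11:112673050-112678586, plus strand) was at 2720, 2272, 2610 and 2477 normalised reads with aldosterone and at 2053, 1721, 2025 and 2162 with vehicle. The lowest aldosterone library lay above the highest vehicle library. The means were 2520 ± 193 and 1990 ± 189 (SD, n = 4 each), a ratio of 1.27, and the log2 fold change was 0.34 (SE 0.0741, interval 0.18 to 0.50, adjusted p = 0.00564, and 2.91e-05 with the block). The call for Sox9 was lost on leaving out aldosterone 1_1, 2_1 or 2_2 or vehicle 1_1, 1_2 or 2_1, with adjusted p between 0.0530 and 0.0931. With the block, it was lost only on leaving out aldosterone 2_1 (adjusted p = 0.0692). Acan (chr7:78703231-78764847, plus strand) was at 863, 813, 1480 and 1364 normalised reads with aldosterone and at 1204, 1160, 1746 and 1925 with vehicle. As for Mkx, the plates of sample number 2 were higher in both groups, and the aldosterone plates were the lower ones within each number. The log2 fold change of Acan was -0.43 (SE 0.186, interval -0.83 to -0.04), with an adjusted p of 0.189 without the block and 2.28e-07 with it.

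Of the bone transcription factors, Runx2 (chr17:44806874-45125684, minus strand) was at 807, 876, 946 and 916 normalised reads with aldosterone and at 1081, 1002, 1079 and 1164 with vehicle. The groups did not overlap. The means were 886 ± 60.1 and 1081 ± 66.0 (SD, n = 4 each) and the log2 fold change was -0.29 (SE 0.0686, interval -0.43 to -0.14, adjusted p = 0.0112, and 0.000215 with the block). Without the block the call for Runx2 was lost on leaving out aldosterone 1_2 or vehicle 1_1, 2_1 or 2_2, with adjusted p between 0.0609 and 0.0689. Runx2 overlaps Supt3 on the opposite strand, which held 166 to 321 reads per library and a log2 fold change of 0.03 (adjusted p = 0.909). Sp7 (chr15:102265041-102275617, minus strand) was at 284, 172, 141 and 135 normalised reads with aldosterone and at 454, 397, 259 and 246 with vehicle. Only aldosterone 1_1 reached into the vehicle range. The mean fell from 339 ± 103 to 183 ± 69.4 (SD, n = 4 each), with a log2 fold change of -0.90 (SE 0.220, interval -1.37 to -0.44, adjusted p = 0.0129, and 2.19e-07 with the block), the lowest of the 10 genes. Without the block the call for Sp7 held only on leaving out aldosterone 1_1, and leaving out any of the other 7 libraries gave adjusted p between 0.0888 and 0.211. With the block, the calls for Runx2 and Sp7 held on leaving out each of the 8 libraries.

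Among the genes of osteoblast function, Alpl (chr4:137469044-137523695, minus strand) was at 129, 147, 274 and 233 normalised reads with aldosterone and at 229, 216, 332 and 310 with vehicle. The aldosterone plates were the lower ones within each sample number, with overlap across them. The log2 fold change of Alpl was -0.51 (SE 0.205, interval -0.95 to -0.08), with an adjusted p of 0.150 without the block and 0.000255 with it. Ibsp (chr5:104447037-104459335, plus strand) was at 5.17, 26.0, 58.0 and 59.7 normalised reads with aldosterone and at 5.03, 7.81, 31.7 and 22.5 with vehicle. Its aldosterone values were above the vehicle ones in sample number 2 and overlapped them in sample number 1. The log2 fold change of Ibsp was 0.97 (interval -0.43 to 2.37, adjusted p = 0.468, and 0.0874 with the block), and it passed in the blocked test only on leaving out aldosterone 1_1 (adjusted p = 0.0182). Bglap (chr3:88290808-88291771, minus strand) was at 14.2, 20.2, 22.1 and 23.5 normalised reads with aldosterone and at 14.3, 23.4, 13.4 and 9.66 with vehicle. The 2 groups overlapped, and the log2 fold change was 0.42 (interval -0.32 to 1.16, adjusted p = 0.574, and 0.540 with the block).

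The value of Bglap is uncertain because the mouse genome holds near-identical copies of osteocalcin. Over the 288 bases of the coding sequence (GENCODE M1 transcripts), Bglap and Bglap2 differ at 4 bases and are 98.6% identical, with an identical run of 241 bases, so many reads could belong to either. They are printed here to show how little sequence separates them, with the 4 differing bases in capitals.
Bglap: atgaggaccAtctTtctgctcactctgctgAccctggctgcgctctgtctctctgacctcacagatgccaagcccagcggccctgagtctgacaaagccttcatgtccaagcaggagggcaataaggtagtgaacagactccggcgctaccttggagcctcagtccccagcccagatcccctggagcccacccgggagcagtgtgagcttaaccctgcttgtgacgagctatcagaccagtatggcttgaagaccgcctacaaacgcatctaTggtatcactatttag
Bglap2: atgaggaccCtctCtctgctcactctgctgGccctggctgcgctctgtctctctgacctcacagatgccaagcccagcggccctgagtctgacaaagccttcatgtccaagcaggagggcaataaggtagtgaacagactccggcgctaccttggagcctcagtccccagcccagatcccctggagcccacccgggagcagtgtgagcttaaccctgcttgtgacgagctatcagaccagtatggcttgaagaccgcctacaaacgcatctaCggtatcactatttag
Bglap2 held 29.8 to 69.5 normalised reads per library, more than Bglap in every library, and Bglap3, which differs from Bglap at 13 of the 288 bases, held at most 2 reads.

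RefSeq promoter windows (GRCm38.p6) were at hand for 6 of the 10 genes, with 7 windows in all because Alpl has 2 start sites. The letters TGTGGT, the core bound by Runx factors, were searched on both strands, and they do not overlap the other motif searched. They occurred in 2 of the 7 windows, those of Bglap and Runx2, both times on the strand opposite to the gene, and in 14.0% of all 32841 windows. The 250 bases upstream of both starts are printed because the regulator Runx2 and the osteoblast gene Bglap share this match, at -132 to -127 and at -80 to -75 from the start respectively, with the match in capitals.
Bglap upstream, chr3:88384467-88384716, minus strand: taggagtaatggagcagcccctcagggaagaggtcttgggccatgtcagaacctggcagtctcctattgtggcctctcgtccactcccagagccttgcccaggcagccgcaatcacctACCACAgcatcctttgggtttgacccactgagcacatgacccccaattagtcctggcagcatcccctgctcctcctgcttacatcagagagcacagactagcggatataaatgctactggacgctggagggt
Runx2 upstream, chr17:44814628-44814877, minus strand: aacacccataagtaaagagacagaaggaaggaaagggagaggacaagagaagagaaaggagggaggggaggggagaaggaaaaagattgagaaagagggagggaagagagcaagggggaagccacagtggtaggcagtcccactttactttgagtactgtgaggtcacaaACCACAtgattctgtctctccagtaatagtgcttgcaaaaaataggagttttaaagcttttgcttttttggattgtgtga
Of this pair, Runx2 was lower with aldosterone and Bglap did not pass. The letters AGAACA, part of the element bound by steroid receptors, occurred in 1 of the 7 windows, that of an Alpl start at -170 to -165, and in 16.1% of all windows.

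Aldosterone was next compared with spironolactone at the same dose and time, in the table of 27631 genes that holds the same 4 aldosterone libraries. Both compounds are steroids. Spironolactone carries a spiro-lactone ring and an acetylthio group, which aldosterone lacks. This was the only pair of compounds, and p-values were adjusted over all genes of the table. Without the block 2 of the 10 genes passed, Scx as lower (3.96% of all genes) and Sox9 as higher (4.93%), and neither reached both thresholds (1.9%). These shares again include many genes with few reads. Among the 15300 genes with a mean of at least 10, which hold all 10 lineage genes, 1171 passed as lower and 1400 as higher. With the block 7 of the 10 passed, 5 lower (6.8% of all genes) and 2 higher (7.58%). The 10 genes had a median log2 fold change of -0.22.

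Scx was at 1142, 1053, 1154 and 1073 normalised reads with aldosterone and at 1819, 2079, 2076 and 1796 with spironolactone. The groups were far apart, and the log2 fold change was -0.81 (SE 0.0659, interval -0.95 to -0.67, adjusted p = 1.71e-07). Sox9 was at 2803, 2335, 2682 and 2545 with aldosterone and at 1912, 1754, 2040 and 2192 with spironolactone. Again no aldosterone library fell within the range of the other group. The log2 fold change of Sox9 was 0.39 (SE 0.0729, interval 0.24 to 0.55, adjusted p = 0.00144), and the call was lost on leaving out aldosterone 2_1 (adjusted p = 0.0553) or spironolactone 1_1 (0.0571). Runx2 was at 832, 900, 973 and 941 with aldosterone and at 1054, 1032, 1046 and 1026 with spironolactone. These groups did not overlap either (exact permutation test, two-sided p = 0.0286, the smallest that 4 against 4 can give). The log2 fold change of Runx2 was -0.19 (interval -0.33 to -0.06, limma adjusted p = 0.0760), and it passed with the block (0.0155), with edgeR (0.0437), with DESeq2 (0.0477) and when genes with a mean under 10 were dropped (0.0434).

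Of the other genes, Mkx (-0.45, interval -0.89 to -0.0037, adjusted p = 0.261), Acan (-0.29, interval -0.69 to 0.11, adjusted p = 0.477) and Sp7 (-0.52, interval -0.94 to -0.09, adjusted p = 0.145) did not pass between aldosterone and spironolactone without the block. With the block they passed as lower, with adjusted p of 6.15e-05 for Mkx, 9.16e-05 for Acan and 0.00151 for Sp7. The blocked test also called Ibsp higher (log2 fold change 1.73, adjusted p = 0.0105), where spironolactone 1_2 held 0 reads. Among these blocked calls, that for Acan held on leaving out any library. That for Mkx was lost without aldosterone 2_1 (0.0593) or spironolactone 1_1 (0.0609), and that for Runx2 held only without aldosterone 2_1 (0.0425) or spironolactone 2_2 (0.0486). The Sp7 call held only without aldosterone 1_1 (0.00398), a library without which it also passed with no block (0.0388), and the Ibsp call was lost on leaving out any of the 8 libraries, with adjusted p of at least 0.123. The intervals of Tnmd (-0.14, -0.29 to 0.02), Alpl (-0.24, -0.73 to 0.25) and Bglap (0.35, -0.39 to 1.10) included 0, and these 3 genes passed in neither test.

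Spironolactone compared to vehicle treatment shares its libraries with the comparisons above. No gene of the 27598 in that table passed in limma (0.0%) or edgeR, and DESeq2 called 13 genes, none of them among the 10. At an unadjusted p under 0.05 limma found 1 of the 10, Sp7, and 4.53% of all genes. Its log2 fold change was -0.38 (interval -0.77 to -0.0030, limma adjusted p = 0.934). All 10 genes overlapped between the groups, which 2.63% of all genes did not. With the block Sp7 passed as lower (adjusted p = 0.0445), against 0.123% of all genes, and this call was lost on leaving out any of the 8 libraries. The intervals of the difference were narrow for Scx (-0.11 to 0.21), Sox9 (-0.21 to 0.11), Runx2 (-0.22 to 0.03) and Tnmd (-0.27 to 0.03). They were wider for Acan (-0.50 to 0.22), Mkx (-0.56 to 0.32) and Alpl (-0.67 to 0.13), and widest for Bglap (-0.75 to 0.89) and Ibsp (-2.55 to 1.04). Within each sample number, Sp7 and Alpl were lower in both spironolactone plates than in both vehicle plates, as were 3.36% of all genes.

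Several of the genes also differed by sample number, across treatments. With all 12 libraries on a common scale and treatment in the model, 6 of the 10 differed between sample numbers 2 and 1, 4 higher (5.07% of all 28995 genes) and 2 lower (5.79%) in number 2. Among the 15276 genes with a mean of at least 10, which hold all 10 lineage genes, 1628 passed as higher and 1914 as lower. Acan ranged from 1379 to 1948 normalised reads in the 6 libraries of number 2 (median 1713) and from 824 to 1217 in the 6 of number 1 (median 1055). Alpl ranged from 236 to 336 (median 299) and from 131 to 232 (median 167). For both genes every library of number 2 lay above every library of number 1 (exact permutation test, two-sided p = 0.00216, the smallest that 6 against 6 can give). The log2 fold changes were 0.70 for Acan (SE 0.0415, adjusted p = 1.29e-12) and 0.74 for Alpl (SE 0.0785, adjusted p = 8.23e-08). All p-values by sample number, those of the permutation test included, took plates as separate units. The labels do not say whether the sample number marks the mouse, so spread between animals was not measured.

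Mkx ranged from 452 to 781 in number 2 (median 667) and from 288 to 469 in number 1 (median 381), with a log2 fold change of 0.74 (SE 0.0635, adjusted p = 1.61e-09). Only 1 library of number 2, aldosterone 2_1, reached into the range of number 1. Ibsp ranged from 22.8 to 60.3 normalised reads (median 32.1) and from 0 to 26.3 (median 5.25), with a log2 fold change of 2.56 (SE 0.420, adjusted p = 7.67e-05). Its library at 0 reads was spironolactone 1_2, and among the vehicle libraries alone the Ibsp difference did not pass (1.93, adjusted p = 0.0627). Sp7 went the other way, from 136 to 262 in number 2 (median 213) and from 174 to 459 in number 1 (median 311), with a log2 fold change of -0.64 (SE 0.0948, adjusted p = 1.73e-05). The bone genes therefore did not share a direction, since Alpl and Ibsp were higher and Sp7 lower in number 2. Tnmd was lower by a small margin (-0.13, SE 0.0428, adjusted p = 0.0463), a call lost on leaving out any of the 12 libraries, with adjusted p between 0.0522 and 0.229. Sox9 (0.13, adjusted p = 0.0900), Runx2 (0.08, 0.298), Scx (-0.07, 0.517) and Bglap (-0.22, 0.738) did not pass, although Sox9 did without aldosterone 1_1 (0.0337). The summed chondrocyte markers also separated by sample number, at 50973 to 76472 normalised reads in number 2 and 23365 to 40146 in number 1, and their part in these differences was not tested.

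**Figure D3:**
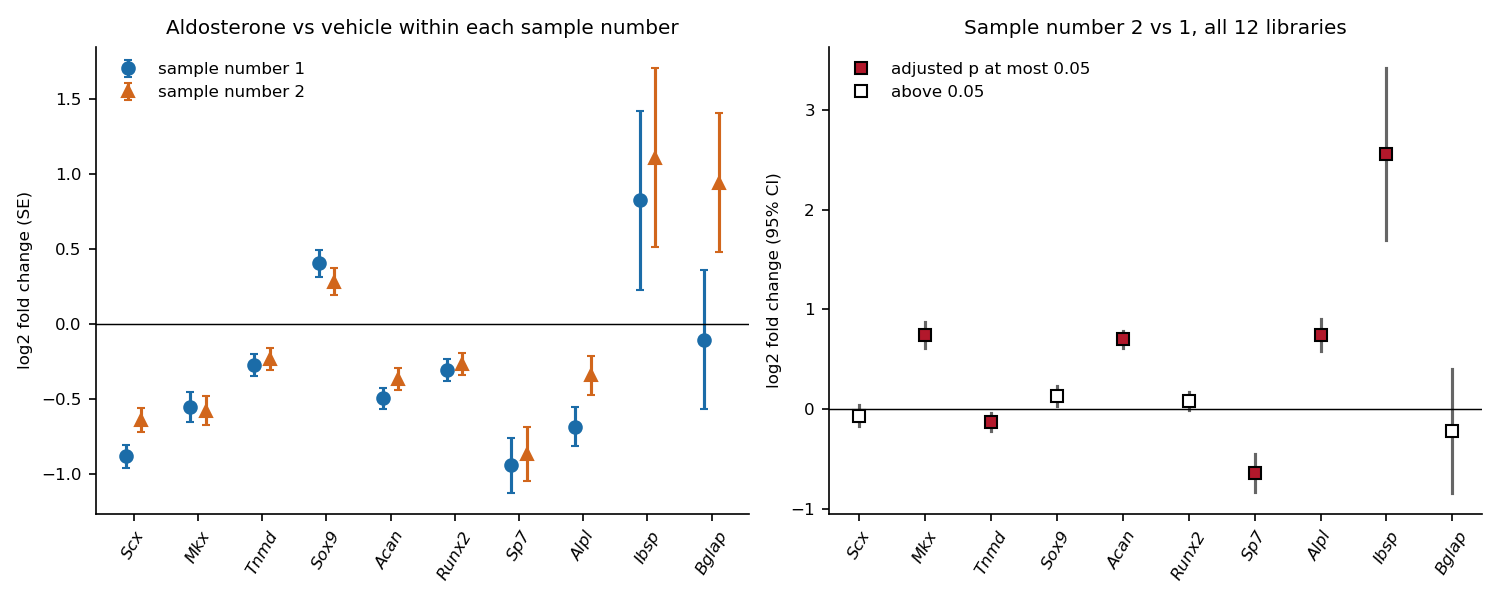
Left, log2 fold change of aldosterone against vehicle within sample number 1 and within number 2 (error bars, SE); right, log2 fold change of sample number 2 against 1 over all 12 libraries (error bars, 95% confidence interval). The aldosterone difference of Scx is -0.88 in number 1 and -0.64 in number 2, while Ibsp, Mkx, Alpl and Acan are higher and Sp7 and Tnmd lower in number 2.

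The aldosterone difference itself was then compared between sample numbers. In numbers 1 and 2 respectively, the log2 fold change against vehicle was -0.88 and -0.64 for Scx, -0.55 and -0.58 for Mkx, and -0.27 and -0.23 for Tnmd. It was 0.40 and 0.28 for Sox9 and -0.50 and -0.37 for Acan. It was -0.31 and -0.27 for Runx2, -0.94 and -0.87 for Sp7, and -0.68 and -0.34 for Alpl. It was 0.82 and 1.11 for Ibsp. For these 9 genes the sign was the same in both numbers. No interaction term passed for the 10 genes in limma or edgeR (0.0146% of all genes passed in limma), with 1 at an unadjusted p under 0.05, that of Scx, beside 4.96% of all genes. The interaction of Scx was 0.24 (interval 0.0034 to 0.48, limma adjusted p = 0.895). Bglap was at -0.10 in number 1 and 0.94 in number 2, with an interaction of 1.04 (interval -0.36 to 2.45, adjusted p = 0.895).

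Other genes of the 3 lineages were followed as lists. Of 22 other tendon genes, 9 passed between aldosterone and vehicle, 3 higher and 6 lower, and 15 passed with the block (6 higher and 9 lower). Over all genes 5.68% were higher and 4.74% lower, and 8.68% and 8.02% with the block, which is the background for the counts of all 3 lists. These shares include many genes with few reads, whereas most list genes had a mean of at least 10. Among the 15245 genes with such a mean, 1620 passed as higher and 1413 as lower without the block, when tested alone. Over the 21 tendon genes with a mean of at least 10 the median log2 fold change was -0.26. Angptl7, a secreted angiopoietin-like factor, was at 6545 ± 1401 normalised reads with aldosterone and 806 ± 92.8 with vehicle (SD, n = 4 each), a log2 fold change of 3.00 (adjusted p = 5.30e-11). Cilp, a matrix protein of cartilage and tendon, rose from 413 ± 80.5 to 949 ± 164 (1.20, adjusted p = 1.43e-05). Thbs2, the matrix protein thrombospondin 2, fell from 14281 ± 416 to 9109 ± 309 (-0.65, adjusted p = 2.50e-07), and Tnc, tenascin C, fell from 12500 ± 1594 to 7891 ± 1530 (-0.67, adjusted p = 0.000658). Htra3, a secreted protease, had a log2 fold change of -0.45 (adjusted p = 0.00681). The growth factor gene Gdf7 was low, at 7.89 ± 4.31 and 22.3 ± 6.36 (-1.54, adjusted p = 0.0465). Kera, the proteoglycan keratocan, held 0 to 2 reads with aldosterone and 3 to 9 with vehicle (adjusted p = 0.0244), too few for a fold change. Leaving out a library lost the calls for Tnc (adjusted p up to 0.0610), Htra3 (0.121), Kera (0.0987) and Gdf7 (0.219).

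Of 32 other cartilage genes, 9 passed, 3 higher and 6 lower, and 17 with the block (9 higher and 8 lower). Over the 28 with a mean of at least 10 the median log2 fold change was 0.02. Comp, cartilage oligomeric matrix protein, rose from 24608 ± 985 to 34224 ± 1110 normalised reads (SD, n = 4 each; log2 fold change 0.48, adjusted p = 2.86e-05). Ucma, a secreted protein of cartilage, was at 229 ± 133 and 85.4 ± 53.3 with overlapping groups (1.44, adjusted p = 0.0468, and 3.89e-09 with the block). Sox8, a relative of Sox9, fell from 34.6 ± 11.5 to 14.1 ± 5.24 (-1.24, adjusted p = 0.0267), opposite in direction to Sox9. Xylt1, which starts proteoglycan sugar chains, and the receptor gene Fgfr3 had log2 fold changes of -0.53 and -0.38 (adjusted p = 0.000165 and 0.00359). Leaving out a library lost the calls for Sox8 (adjusted p up to 0.131) and Ucma (0.367).

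Of 32 other bone genes, 8 passed, 5 higher and 3 lower, and 12 with the block (5 higher and 7 lower). Over the 26 with a mean of at least 10 the median log2 fold change was -0.15. Smpd3, a sphingomyelinase needed for mineralisation, rose from 91.8 ± 16.3 to 917 ± 214 normalised reads (SD, n = 4 each; log2 fold change 3.29, adjusted p = 2.38e-10). Mgp, an inhibitor of calcification, rose from 5670 ± 1077 to 19201 ± 4911 (1.74, adjusted p = 5.75e-07), and Spp1, osteopontin, rose from 3427 ± 473 to 6920 ± 547 (1.02, adjusted p = 3.97e-07). Tnfrsf11b, osteoprotegerin, which restrains osteoclast formation, fell from 3987 ± 397 to 1754 ± 87.5 (-1.18, adjusted p = 4.83e-09). Runx1, a relative of Runx2, fell from 965 ± 129 to 647 ± 60.5 (-0.57, adjusted p = 0.000480), and Cbfb, the shared partner of the Runx factors, had a log2 fold change of -0.19 (adjusted p = 0.0452). Ank, a pyrophosphate transporter that limits mineralisation, had a log2 fold change of 0.40 (adjusted p = 0.00661). Leaving out a library lost the calls for Ank (adjusted p up to 0.124) and Cbfb (0.121).

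**Figure D4:**
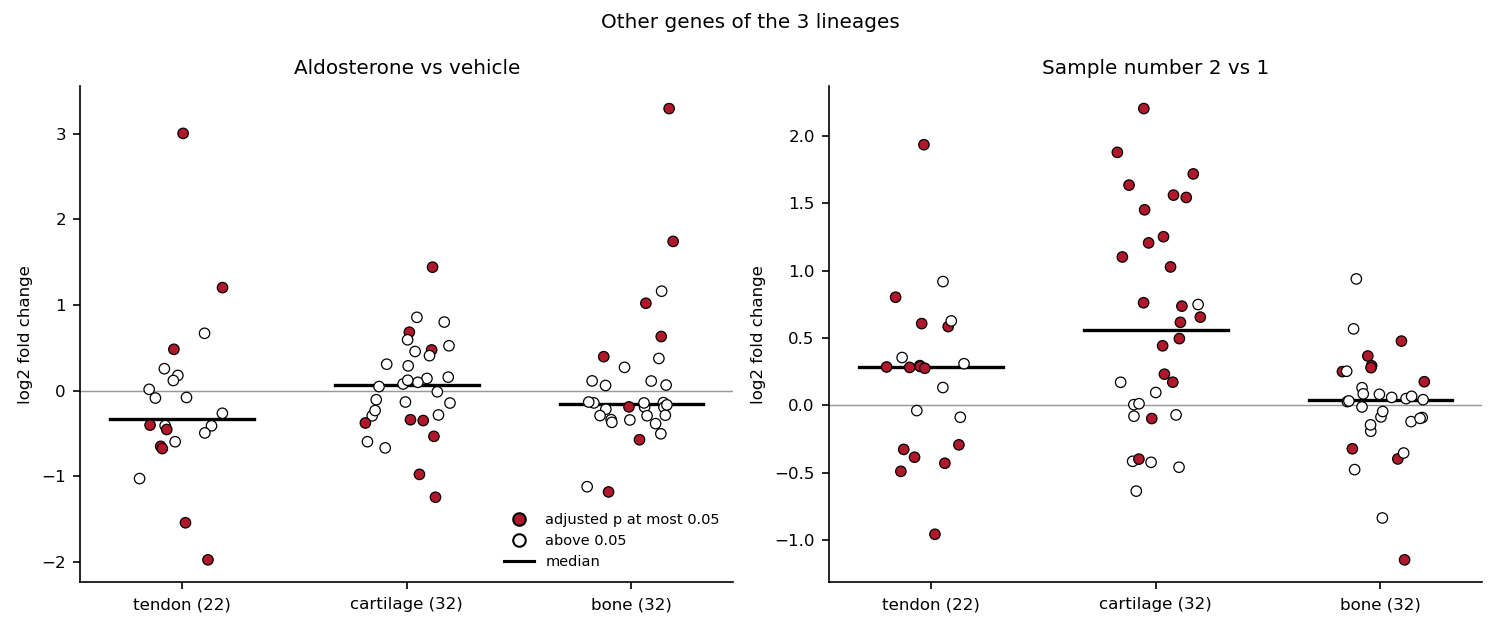
Log2 fold change of each gene of the lists of 22 other tendon, 32 other cartilage and 32 other bone genes, in the comparison of aldosterone with vehicle and of sample number 2 with 1, with filled points where the adjusted p passed. In the aldosterone comparison each list holds genes in both directions, and by sample number 19 cartilage genes are higher and 2 lower in number 2.

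Between aldosterone and spironolactone, 7 of the other tendon genes passed (2 higher and 5 lower), 7 of the cartilage genes (3 and 4) and 6 of the bone genes (4 and 2), where 4.93% of all genes were higher and 3.96% lower. With the block these counts were 13 (6 and 7), 17 (12 and 5) and 13 (6 and 7), beside 7.58% and 6.8% of all genes. Among the 15300 genes with a mean of at least 10, 1400 passed as higher and 1171 as lower without the block, when tested alone. Between spironolactone and vehicle none of the 3 lists held a gene that passed without the block. With it 4 passed, Angptl7 (0.26, adjusted p = 0.0290) and Mgp (0.28, adjusted p = 0.00187) as higher, beside 0.228% of all genes, and Runx1 (-0.36, adjusted p = 0.000699) and Col11a2, a cartilage collagen (-0.31, adjusted p = 0.0143), as lower, beside 0.123%. No gene of that table passed in the blocked test once any library was left out, and Col11a2 is named after its values were seen. By sample number, where 5.07% of all genes were higher and 5.79% lower in number 2, 15 tendon genes passed (9 higher and 6 lower in number 2), 21 cartilage genes (19 and 2) and 9 bone genes (6 and 3). Among the 15276 genes with a mean of at least 10, 1628 were higher and 1914 lower when tested alone. The median log2 fold change of the cartilage list by sample number was 0.56 among the 28 genes with a mean of at least 10, beside -0.0024 over all such genes. Col2a1 (1.10, adjusted p = 7.75e-17) and Cnmd, chondromodulin (1.88, adjusted p = 1.95e-16), which are markers of chondrocytes, were among the genes higher in number 2 along with Acan, and they were chosen for naming after their values were seen.

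Markers of other cells moved with aldosterone too. The summed level of 8 myogenic markers was 212 to 455 normalised reads with aldosterone and 527 to 784 with vehicle, nearly all of it Acta1 and Des. That of 5 endothelial markers was 686 to 764 and 479 to 539, most of it Tek (489 to 569 and 431 to 481). Kdr, a receptor of the same list, was at 93.6 to 243 and 21.7 to 75.0. Cdh5 and Emcn had higher means with aldosterone, in overlapping ranges. Pecam1, which did not exceed 12 reads, went the other way, at 1.86 to 3.90 normalised reads with aldosterone and 4.94 to 10.2 with vehicle. The 2 adipocyte markers summed to 110 to 198 and 29.6 to 90.1, and the 4 macrophage markers found of 5 to 63.5 to 94.2 and 61.7 to 92.4. The 6 chondrocyte markers, Sox9 and Acan among them, summed to 37439 to 76472 with aldosterone and 24732 to 56911 with vehicle, most of it Col2a1 (33565 to 69858 and 21224 to 50760), with overlap across sample numbers. Acan and Matn1 went against the sum, with lower means under aldosterone in overlapping ranges, while the means of Sox9, Col9a1 and Cnmd were higher. Pericyte and smooth muscle markers (4 genes) summed to 7211 to 11649 and 9107 to 12936, and Schwann cell (3 genes) and keratinocyte (2 genes) markers stayed within overlapping ranges. Of the pericyte and smooth muscle markers, Cspg4, Mcam and Rgs5 had lower means with aldosterone, and Myh11 did not (means 1230 and 1219). The part of these markers in the differences of the 10 lineage genes was not tested.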

How the data were processed

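RNA-seq libraries of 12 fibroblast cultures were analysed from 3 deposited tables, 1 per pair of treatments. Per the submitters' processing notes, the authors aligned reads with HISAT2 2.0.5 to mm39 (the study's methods name an older build) and counted them per gene with featureCounts 1.5.0-p3. The deposited values are a signal, gene counts that the authors divided by a size factor for each library, with gene lengths beside them as other values. All of the values (100%) came out as whole reads within 0.01 of a read, and in the 10 libraries recovered from 2 tables no gene differed. The deposited log2 fold changes and p-values are the authors' own comparisons and were not used.

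Here, log2(value + 1) was tested within each table with limma 3.58.1 in R 4.3.3 (trend in the prior variance, two-sided), over all genes, with Benjamini-Hochberg adjustment. The 12 libraries were compared by sample number after division of the recovered reads by common size factors. The code was tested on simulated data. Libraries with the same sample number deviated together across treatments in all 24 pairs (mean r 0.219, lowest 0.134), which those with the same replicate number did not (mean r -0.0055), so results that change with the sample number as a block are given with it. Alternatives were a pseudocount of 0.5, a mean of at least 10, edgeR 4.0.16 and DESeq2 1.42.0 on the recovered reads, TMM scaling, both blocks and leaving out each library. Leaving out each library together with the block, and the sample number comparison within aldosterone or spironolactone libraries, were added after the data were seen.

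All 10 lineage genes are named whatever their values. Of the 3 lists, genes that passed both thresholds between aldosterone and vehicle are named, and otherwise at most 3 per list with the smallest adjusted p. The lineage genes and the lists were chosen with earlier results of these data known. Depth was 19136923 to 30219185 reads per library, at which Ibsp, Bglap and Kera held few reads.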

Additional observations from a re-analysis of the deposited data

Results flagged for a closer look

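The keratocan gene Kera was at 2.11 scaled reads in spironolactone 1_1 (2 reads) and at 4.79, 5.31 and 5.02 in the other spironolactone libraries, a gap that Dixon's test at the 95% level sets apart. It was the only such value in 87 groups of 4 libraries tested, where chance alone gives about 1 in 20.

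The difference of Angptl7 between aldosterone and vehicle was itself different between sample numbers, with an interaction of 0.80 on the log2 scale (SE 0.0924, limma adjusted p = 0.0111). In sample number 1 Angptl7 was at 5219 and 5537 normalised reads with aldosterone and 905 and 865 with vehicle, and in number 2 at 7269 and 8154 with aldosterone and 724 and 730 with vehicle.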

How the results depend on the processing

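Entering the sample number as a replicate block moved the number of the 10 lineage genes that passed from 5 to 8 between aldosterone and vehicle, from 2 to 7 between aldosterone and spironolactone and from 0 to 1 between spironolactone and vehicle. The block on the replicate number left them at 5, 2 and 0. Over all genes, the sample number block gave 4563 calls in place of 2847, 3974 in place of 2454 and 97 in place of 0, where DESeq2 gave 13. Leaving out each library in turn gave 1 to 4, 1 to 3 and 0 lineage genes, and 7 to 9, 3 to 5 and 0 together with the block, from fewer libraries in each test. The sample number comparison gave 6, and 5 to 6 on leaving out a library. Within the vehicle, aldosterone and spironolactone libraries alone it gave 4, 5 and 4, from fewer libraries. A pseudocount of 0.5 and TMM scaling left the number between treatments as it was, and a mean of at least 10, edgeR and DESeq2 added Runx2 between aldosterone and spironolactone. Reversals of sign were confined to values that did not pass. Between spironolactone and vehicle, leaving out a library gave 0.0137 to 0.1235 for Scx (-0.0099 to 0.1152 with the block), -0.3168 to 0.0639 for Mkx, -0.1166 to 0.0061 for Sox9, -1.4027 to 0.2785 for Ibsp and -0.1097 to 0.3314 for Bglap (-0.1816 to 0.2777 with the block). By sample number, aldosterone libraries alone gave 0.0211 for Scx and 0.4040 for Bglap, and spironolactone libraries alone -0.0076 for Runx2. The cause was not tested. Of the list genes named, Ucma, Gdf7, Cbfb and Kera each lost their call under at least 1 other setting. The calls for Tnc, Htra3, Sox8 and Ank were also lost on leaving out a library. The 95% intervals of Ibsp and Bglap, the genes with the lowest counts of the 10, were over 1 log2 unit wide in each treatment comparison.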
